A study of Mus musculus with 12 samples.

Results

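The annexins measured here were the 9 genes Anxa1, Anxa2, Anxa3, Anxa4, Anxa5, Anxa6, Anxa7, Anxa8 and Anxa11. They were matched by gene symbol in a table of mRNA-Seq values of mouse epididymal white adipose tissue (eWAT), and are 9 of the 22016 genes of that table and 9 of the 12238 genes with enough signal to be tested. The study asked how chrysanthemum leaves and luteolin, a flavonoid they contain, act on obesity brought on by diet. Male C57BL/6J mice were put on 1 of 4 diets at 5 weeks of age, kept on it for 16 weeks and were 21 weeks old when sampled. The groups were the normal diet (ND), the high-fat diet (HFD), the HFD with an ethanol extract of chrysanthemum leaves at 1.5% of the diet by weight (CLE), and the HFD with luteolin at 0.003% (LU). CLE and LU mice therefore ate the same fat as HFD mice, and no group received either supplement on the normal diet. Each group had 3 mice, which the methods call representative of larger groups, and each mouse gave 1 library of the whole tissue.

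Annexins are proteins that bind membranes rich in acidic phospholipids when calcium rises. They share a conserved core that holds the calcium and membrane binding sites, and differ in the tail before it, through which several of them bind S100 proteins. They are known for sealing torn plasma membranes, for guiding vesicles and endosomes, and for acting outside the cell, where annexin A1 limits inflammation through formyl peptide receptors and annexin A2 holds plasminogen at the cell surface. In fat tissue they are made by adipocytes as well as by macrophages, vessel cells and connective tissue cells.

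The deposited values are FPKM, fragment numbers scaled to transcript length and to the number of fragments mapped, so levels of different genes can be compared. The depth behind them is unknown. The transcripts of each gene were summed, and differences were tested with limma on log2(FPKM + 1). Every log2 fold change below is on this scale, which understates changes of low genes. A gene was called higher or lower at a Benjamini-Hochberg adjusted p under 0.05 over all genes tested together with a fold change over 1.5, and "rose" and "fell" are used of called genes. Within a group, 2 mice correlated over genes with a Pearson's r of 0.980 to 0.992. A letter R that is not explained stands in the labels of 4 libraries (mouse 3 and mouse 4 of ND, mouse 4 of CLE, mouse 2 of LU) but of no HFD library. The column used for ND mouse 4 was assigned to it by inference from its heading. The 6 adipocyte markers looked at (Adipoq, Plin1, Cidec, Lep, Fabp4 and Lipe) summed to between 15637 and 27555 FPKM in the 12 libraries, whereas 8 epididymis genes summed to 5.75 FPKM at most.

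All annexins of the list were detected in every mouse, at very different levels. Averaged over the 12 libraries, the level was highest for Anxa2 at 633 FPKM, followed by Anxa5 at 417, Anxa1 at 373 and Anxa6 at 278 FPKM. Anxa3 at 97.6, Anxa7 at 57.9, Anxa4 at 48.9 and Anxa11 at 32.8 FPKM formed a middle range, and Anxa8 was the lowest at 6.40 FPKM. Anxa2 lay above 99.5% of the genes tested in mean level, while Anxa8 lay above 31.3%. This order was not the same on each diet. In ND mice Anxa1, the glucocorticoid-induced annexin known for ending inflammation, was below Anxa5 and Anxa6 in mean level, with 125 to 234 FPKM against 275 to 360 for Anxa5. In HFD mice Anxa1 was above both, with 602 to 683 FPKM against 484 to 515 for Anxa5, so that it was second to Anxa2 only.

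**Figure D1:**
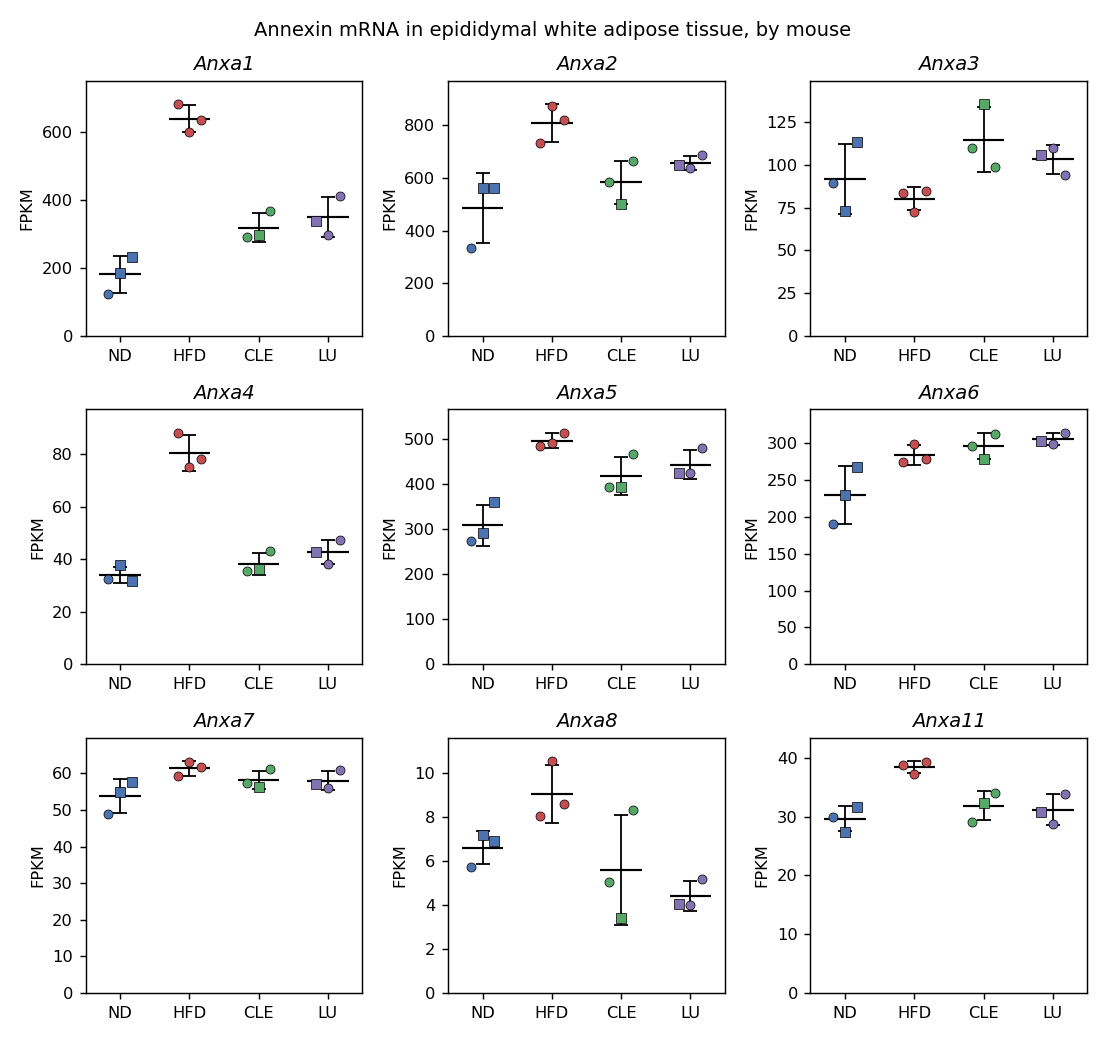
Level of each annexin in FPKM (linear axis from 0) in every mouse of the ND, HFD, CLE and LU groups, with the mean (horizontal line) and SD (error bar) of 3 mice; squares are libraries whose label carries the letter R. The HFD mice stand above all ND mice in every panel other than Anxa3, and for Anxa4 the 3 HFD mice (75.2 to 88.2 FPKM) lie above all 9 others (31.9 to 47.2 FPKM).

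Summed over the 9 genes, annexin mRNA reached 1421 ± 272 FPKM in ND (mean ± SD, n = 3, as for every group value here), 2498 ± 41.9 in HFD, 1866 ± 169 in CLE and 1996 ± 124 in LU. The lowest HFD mouse, with 2450 FPKM, was above the highest mouse of any other group, LU mouse 8 with 2135 FPKM. The make-up of this sum changed most in Anxa1, which held 12.6% ± 1.47 of it in ND, 25.7% ± 2.05 in HFD, 17.1% ± 0.883 in CLE and 17.5% ± 1.81 in LU. Anxa2 kept a like share on all diets, between 31.2% in CLE and 33.8% in ND. The share of Anxa6 went the other way from that of Anxa1, with 16.2% in ND, 11.3% in HFD, 15.9% in CLE and 15.3% in LU. Its mean level was nonetheless higher in HFD (283 FPKM) than in ND (229 FPKM), since a share also depends on the other annexins. The share of Anxa3 was 6.57% in ND and 3.22% in HFD, at mean levels of 91.9 and 80.3 FPKM.

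**Figure D2:**
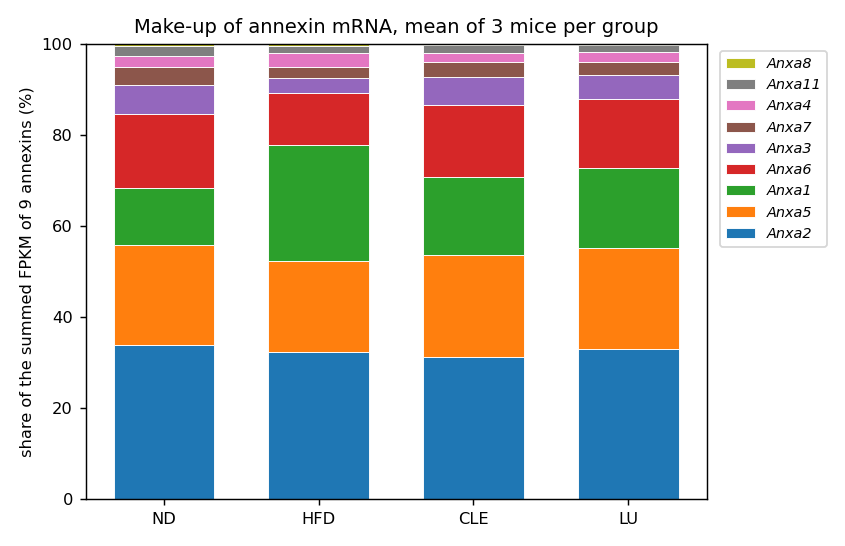
Share of each annexin in the summed FPKM of the 9 annexins, in percent, as the mean of 3 mice per group in stacked bars. The green segment of Anxa1 goes from 12.6% in ND to 25.7% in HFD and is 17.1% in CLE and 17.5% in LU; Anxa8 is under 0.5% in every group and is barely visible.

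The genes lie on several chromosomes, with positions given in GRCm38 from GENCODE M21. Anxa1 (ENSMUSG00000024659) is on the minus strand at chr19:20373428-20390944, Anxa2 (ENSMUSG00000032231) on the plus strand at chr9:69453620-69491795 and Anxa4 (ENSMUSG00000029994) on the minus strand at chr6:86736840-86793584. Anxa3 (ENSMUSG00000029484) is at chr5:96793339-96845966 on the plus strand, Anxa5 (ENSMUSG00000027712) at chr3:36448923-36475894 and Anxa6 (ENSMUSG00000018340) at chr11:54979108-55033445, both on the minus strand. Chromosome 14 holds Anxa7 (ENSMUSG00000021814, chr14:20455260-20480133, minus strand), Anxa11 (ENSMUSG00000021866, chr14:25842156-25886804, plus strand) and Anxa8 (ENSMUSG00000021950, chr14:34085981-34100571, plus strand). Antisense or opposite-strand genes overlap Anxa2 (Gm16144), Anxa8 (A630023A22Rik) and Anxa11 (Anxa11os), and lincRNA genes on the other strand overlap Anxa1 (1500015L24Rik) and Anxa4 (Gm44036). Reads from either strand there cannot be told apart, since the library kit is not stated to keep strand.

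For most annexins 1 annotated transcript held nearly all of the value, from 84.4% for Anxa11 and 89.4% for Anxa7 to 92.3% for Anxa2, 93.9% for Anxa8, 94.4% for Anxa5 and 94.6% for Anxa4. In Anxa6 the value was divided between ENSMUST00000108883 with 69.8% and ENSMUST00000102727 with 23.9%, which have the same start and end. Anxa1 differed: 87.4% of its FPKM was in a transcript assembled from the reads that shares at least 1 splice junction with ENSMUST00000025561 and reaches 20393830, past the annotated start of this minus-strand gene at 20390944. The annotated transcript itself held 2.61%. Anxa3 was spread over ENSMUST00000031447 with 38.4% and several assembled transcripts, the largest with 24.7% and 16.8%, both of which end inside the gene. In Anxa5 an assembled transcript whose downstream end lies inside the gene, at 36453849, held 0.880% of the value in ND and 10.3% in HFD, with 4.91% in CLE and 4.48% in LU.

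RefSeq promoter windows (GRCm38.p6) were found for 7 of the 9 annexins, all but Anxa3 and Anxa6. Stretches of 150 bases are shown for Anxa4 and Anxa2, which rose with the HFD, for Anxa8, which fell with both supplements, and for Anxa11, which was not called in any comparison. The windows of Anxa1 and Anxa5 are not shown, because 250 and 208 of their 250 upstream bases lie in annotated exons. Each is printed 5′ to 3′ on the strand of its gene, and capitals mark matches to the motifs searched. Anxa4 is read from chr6:86793585-86793734 (minus strand), Anxa2 from chr9:69453470-69453619 (plus strand, 213 to 64 bases upstream of the RefSeq start because the nearer 63 bases lie in an exon), Anxa8 from chr14:34085829-34085978 (plus strand) and Anxa11 from chr14:25842005-25842154 (plus strand).
Anxa4: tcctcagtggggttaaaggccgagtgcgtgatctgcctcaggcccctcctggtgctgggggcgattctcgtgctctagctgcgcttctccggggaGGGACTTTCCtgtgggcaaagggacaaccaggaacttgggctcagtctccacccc
Anxa2: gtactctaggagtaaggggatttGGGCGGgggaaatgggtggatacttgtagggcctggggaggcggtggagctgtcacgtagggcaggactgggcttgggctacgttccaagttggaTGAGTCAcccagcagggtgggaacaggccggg
Anxa8: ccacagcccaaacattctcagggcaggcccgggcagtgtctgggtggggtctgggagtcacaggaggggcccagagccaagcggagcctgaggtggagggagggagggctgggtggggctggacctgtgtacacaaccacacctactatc
Anxa11: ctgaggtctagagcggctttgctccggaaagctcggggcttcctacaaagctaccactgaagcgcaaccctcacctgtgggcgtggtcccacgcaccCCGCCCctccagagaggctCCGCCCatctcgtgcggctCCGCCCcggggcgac

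The stretch of Anxa4 ends at the first base of its annotated transcript ENSMUST00000001187, which carried 94.6% of its FPKM, and holds a match to the NF-kB motif searched, 55 to 46 bases upstream. This motif was present on either strand in 1.41% of the 32851 RefSeq windows of mouse genes. Shares of windows count all 250 upstream bases, more than the 150 printed. A second RefSeq window of Anxa4, at chr6:86775065-86775364, held no match to the NF-kB motif. The stretch of Anxa2 holds a GC box (GGGCGG) and an AP-1 match (TGANTCA), which were present in 32.7% and 6.75% of all windows. Anxa11 holds 3 GC boxes in reverse orientation, and none of the motif letters searched are in the stretch of Anxa8. The other motifs searched were CCAAT (33.8% of windows), TATAAA (12.4%), the PU.1 letters GAGGAAGT (2.44%) and the C/EBP letters TTGCNNAA (9.56%). A match describes the letters only, and binding was not measured.

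The comparison of HFD with ND asked what the diet alone changed. Of the 9 annexins, 4 rose with the HFD, namely Anxa1, Anxa4, Anxa2 and Anxa5, and 0 fell. Of all genes tested, 25.7% were called, 15.1% as higher. The annexins had a median log2 fold change of 0.40, against -0.02 over all genes tested. Of the 9, 8 had all HFD mice above all ND mice, and the groups did not overlap in either direction for 59.9% of all genes. Whole tissue was measured, so a larger number of cells of a type and more mRNA per cell cannot be told apart here.

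Anxa1 was measured at 125, 187 and 234 FPKM in the ND mice and at 683, 602 and 636 FPKM in the HFD mice. The lowest HFD mouse was above the highest ND mouse by more than the whole ND range. The HFD mean was 3.52-fold the ND mean, with a log2 fold change of 1.85 (SE 0.20, limma adjusted p = 1.74e-05), the largest change of an annexin between these groups. Anxa4, an annexin of epithelial membranes that is also found in many other cells, was at 32.4, 37.7 and 31.9 FPKM in ND and at 88.2, 75.2 and 78.1 FPKM in HFD. The ND mice lay close together and all HFD mice were far above them. The HFD mean was 2.37-fold the ND mean, at a log2 fold change of 1.22 (SE 0.11, limma adjusted p = 6.15e-06).

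Anxa2, which forms a complex with S100a10 and binds plasminogen, had 332, 560.2 and 563 FPKM in ND mice and 730.5, 873 and 819 FPKM in HFD mice. ND mouse 2 was well below the other two. The log2 fold change was 0.77 (SE 0.18, limma adjusted p = 0.00416), and without ND mouse 2 it was 0.52, under the fold of 1.5 that a call needs. Anxa5, which covers exposed phosphatidylserine and is the standard label of dying cells, was at 275, 292 and 360 FPKM in ND and at 484, 492 and 515 FPKM in HFD. The HFD mice were close to each other and above all ND mice. The log2 fold change of Anxa5 was 0.69 (SE 0.11, limma adjusted p = 0.000329), and it was 0.55, no longer a call, when assembled transcripts were left out.

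The other annexins differed less between ND and HFD. Anxa11, which binds the calcium sensor Pdcd6 and travels with RNA granules, had 29.9, 27.4 and 31.7 FPKM in ND and 38.8, 37.3 and 39.2 FPKM in HFD. Its log2 fold change of 0.36 (SE 0.09) had a limma adjusted p of 0.0058 but was below the fold needed. The same held for Anxa6, the long annexin with a duplicated core that works on endosomes and cholesterol, with 190.2, 229.6 and 268 FPKM in ND, 274, 298 and 278 in HFD, a log2 fold change of 0.32 and a limma adjusted p of 0.0315. Counting by the adjusted p alone, 6 annexins were higher in HFD, where 51.2% of all genes passed that threshold in either direction. Anxa7, known as synexin and for joining granule membranes, was at 48.8 to 57.7 FPKM in ND and 59.2 to 63.1 in HFD (log2 fold change 0.19, limma adjusted p = 0.0745). Anxa8, a low annexin of late endosomes, was at 5.72 to 7.15 FPKM in ND and 8.01 to 10.5 in HFD (log2 fold change 0.40, limma adjusted p = 0.147). Anxa3, known as an annexin of neutrophils, was the exception in its direction. It had 89.3, 72.9 and 114 FPKM in ND and 83.7, 72.4 and 84.8 FPKM in HFD, which overlapped, with a log2 fold change of -0.17 (95% confidence interval -0.52 to 0.17, limma adjusted p = 0.383).

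The libraries with the letter R bear on this comparison, since ND mice 3 and 4 carry it and no HFD mouse does. With the letter as a covariate, the log2 fold changes were 1.98 for Anxa1, 0.86 for Anxa2, 1.22 for Anxa4 and 0.70 for Anxa5, and all of these passed the thresholds. Among the 8 libraries without it, ND was represented by mouse 2 alone, which was assumed to vary like the other groups. There the log2 fold changes were 2.34 for Anxa1, 1.28 for Anxa2, 1.28 for Anxa4 and 0.85 for Anxa5. Mouse 2 was the lowest ND mouse for Anxa1, Anxa2 and Anxa5, so this fit cannot separate the letter R from that mouse.

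Markers of several cell types also changed with the HFD, some upward and others downward. Over all genes tested, 15.1% rose with the HFD and 10.6% fell. With CLE 6.28% rose and 10.4% fell, and with LU 4.67% rose and 7.75% fell. Of the 10 macrophage markers listed, 9 were in the table, and 8 of these rose with the HFD. Their summed level was 348 to 517 FPKM in ND, 2712 to 3141 in HFD, 600.4 to 995 in CLE and 951 to 1148 in LU. Cd68, a lysosomal macrophage protein, had a mean of 14.9 FPKM in ND and 266 in HFD, and Trem2, a lipid receptor of macrophages, had 1.84 and 180.3. The adipocyte markers went the other way, with sums of 26024 to 27555 FPKM in ND, 15637 to 17608 in HFD, 23178 to 24937 in CLE and 21697 to 26732 in LU. Of the 6, 5 fell and Lep rose with the HFD. Markers of mesothelium summed to 12.7 to 59.5 FPKM in ND and 2.33 to 7.61 in HFD, and 5 of 7 fell. Smooth muscle markers overlapped in sum (122 to 249 FPKM in ND and 120 to 154 in HFD), yet 2 of the 4 tested fell. In the other lists 3 of 3 red blood cell markers fell (213 to 736 FPKM in ND and 57.2 to 109.5 in HFD), as did 2 of 6 liver markers and, of 5 endothelial markers, Emcn. Emcn and Kdr, of 5 vessel cell markers, Acta2, of 4 smooth muscle markers tested, and Lrrn4, of 7 mesothelium markers, rose with both supplements. Cdh5, of vessel cells, and Ly6a, of 6 adipose progenitor markers, rose with LU only, and Alb, of 6 liver markers, with CLE only. Of the 6 adipocyte markers, 5 rose with CLE and 2 with LU, while Lep fell with both. Neutrophil markers summed to 0.849 to 1.50 FPKM in ND, 3.83 to 4.54 in HFD, 1.40 to 1.64 in CLE and 1.83 to 2.26 in LU. Of the 5, 4 were under 1 FPKM in every library, 1 of these at 0, and Csf3r, the receptor of a growth factor of neutrophils, rose with the HFD by 1.32 on the log2 scale (limma adjusted p = 6.66e-07) and fell with both supplements. Adipose progenitor markers overlapped in sum (754 to 938 FPKM in ND and 642 to 770.0 in HFD), and 1 of 6, Ly6a, fell. Those of T cells overlapped too (3.79 to 5.15 and 3.90 to 5.74 FPKM). Sums of B cell markers (2.41 to 4.97 and 1.33 to 2.23) and epididymis markers (0.388 to 5.75 and 0.0487 to 0.364) were low, and lower in HFD. Of these lists only Cd79b, of B cells, and Crisp1, of epididymis, could be tested, and neither was called. The part of these cells in the annexin levels was not tested.

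**Figure D3:**
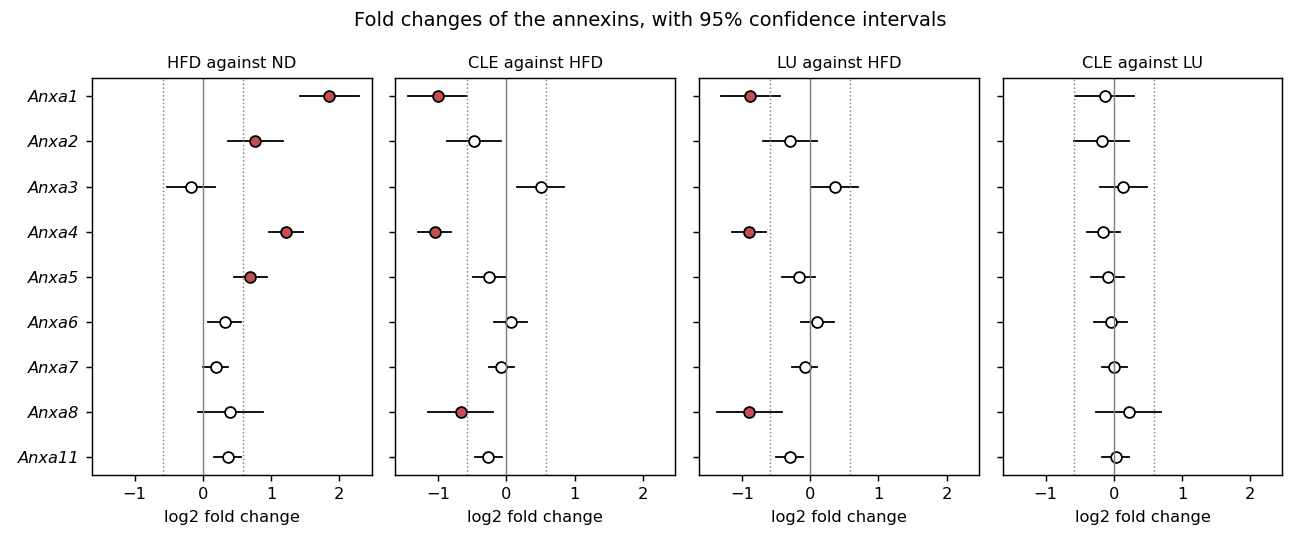
Log2 fold change of each annexin on the log2(FPKM + 1) scale with its 95% confidence interval from limma (3 mice per group), in 1 panel each for the HFD set against ND, for both supplements set against HFD and for the supplements set against each other; filled points passed an adjusted p under 0.05 and the fold of 1.5 marked by dotted lines. Anxa1 and Anxa4 are filled to the right of 0 with the HFD and to the left with either supplement, and no point is filled in the last panel.

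The comparison of CLE with HFD asked what the extract changed on the same fat, with the same HFD mice as above. Anxa1, Anxa4 and Anxa8 fell, and 0 of the 9 annexins rose. Over all genes, 16.6% were called, 10.4% as lower and 6.28% as higher. The median log2 fold change was -0.27 for the annexins and 0.00 for all genes tested. The groups did not overlap for 5 annexins that were lower in CLE (Anxa1, Anxa2, Anxa4, Anxa5 and Anxa11) and 1 that was higher (Anxa3), against 51.2% of all genes in either direction.

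Anxa1 in CLE mice was at 290.7, 298 and 368 FPKM, far below the HFD mice, whose lowest had 602. The CLE mean was 0.498 of the HFD mean, a log2 fold change of -1.01 (SE 0.20, limma adjusted p = 0.00232). Anxa4 in CLE was at 35.7, 36.2 and 43.2 FPKM, which overlapped the ND mice and lay below all HFD mice. Its log2 fold change was -1.05 (SE 0.11, limma adjusted p = 5.32e-05). Anxa8 was at 5.04, 3.39 and 8.28 FPKM in CLE, and mouse 11 overlapped the HFD mice. Its log2 fold change of -0.67 (SE 0.22, limma adjusted p = 0.0332) was the least firm of the calls. It was -0.42 without the libraries with the letter R, with a limma adjusted p of 0.176, and ranged from -0.96 to -0.42 over the fits without 1 library. The call was lost on leaving out any 1 HFD mouse (limma adjusted p = 0.0508 without mouse 12, 0.113 without mouse 15 and 0.0657 without mouse 18), CLE mouse 2 (0.0841) or CLE mouse 4 (0.126).

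Anxa2 in CLE was at 584, 502 and 665 FPKM, below all HFD mice, but its log2 fold change of -0.47 (SE 0.18) did not pass, with a limma adjusted p of 0.0636. Anxa5 was at 395, 394 and 467 FPKM, for a log2 fold change of -0.25 and a limma adjusted p of 0.101. Both lay between ND and HFD in mean level. Anxa11, at 29.2, 32.3 and 34.0 FPKM, and Anxa3, at 110.2, 136 and 98.7 FPKM, passed the adjusted p without the fold. Anxa11 was lower in CLE (log2 fold change -0.27, limma adjusted p = 0.0396) and Anxa3 was higher (0.50, limma adjusted p = 0.029). Anxa3 was the only one of the 9 whose CLE mice were all above all HFD mice, and without CLE mouse 11 its log2 fold change was 0.60, past the fold. Together 5 annexins passed the adjusted p, as did 34.7% of all genes. Anxa6, at 278 to 312 FPKM, had a log2 fold change of 0.06 (95% confidence interval -0.18 to 0.30). Anxa7, at 56.4 to 61.1 FPKM, had one of -0.07 (-0.25 to 0.11).

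The comparison of LU with HFD asked the same of luteolin. Anxa1, Anxa4 and Anxa8 fell here too, and 0 annexins rose. Of all genes tested, 12.4% were called, 7.75% as lower and 4.67% as higher. The median log2 fold change was -0.29 for the annexins and 0.03 for all genes. The groups did not overlap for 6 annexins lower in LU (Anxa1, Anxa2, Anxa4, Anxa5, Anxa8 and Anxa11) and 1 higher (Anxa3), against 48.3% of all genes. The HFD mice are shared with the comparison of CLE, so the counts of both are not independent.

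Anxa1 in LU mice was at 339, 299 and 414 FPKM. Its mean was 0.547 of the HFD mean, with a log2 fold change of -0.88 (SE 0.20, limma adjusted p = 0.00724). Anxa4 was at 42.9, 38.2 and 47.2 FPKM, and its log2 fold change was -0.90 (SE 0.11, limma adjusted p = 0.000294). For both genes every LU mouse was below every HFD mouse and above every ND mouse. Anxa8, at 4.04, 3.99 and 5.19 FPKM, was below all HFD and all ND mice, and had a log2 fold change of -0.89 against HFD (SE 0.22, limma adjusted p = 0.0112).

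Anxa11 in LU was at 30.8, 28.7 and 33.9 FPKM, with a log2 fold change of -0.30 and a limma adjusted p of 0.0304, under the fold needed. By the adjusted p alone 4 annexins passed, against 27.7% of all genes. Anxa2, at 649, 637 and 687 FPKM, was below all HFD mice, by -0.29 on the log2 scale (limma adjusted p = 0.255). Anxa5, at 426, 426 and 480.3 FPKM, changed by -0.16 on the log2 scale (limma adjusted p = 0.30). Anxa3, at 106, 110.0 and 93.9 FPKM, was above all HFD mice by 0.36 on the log2 scale (limma adjusted p = 0.112), and it passed as higher, at 0.70, when assembled transcripts were left out. Anxa6 at 298 to 314 FPKM and Anxa7 at 56.0 to 61.0 FPKM overlapped HFD, with 95% confidence intervals of -0.14 to 0.35 and -0.26 to 0.10. Macrophage markers moved with the calls of both supplements: 8 of the 9 fell with CLE and 8 with LU, against 10.4% and 7.75% of all genes. The part of macrophages in these calls was not tested.

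CLE and LU were also set against each other. They are an extract and a single compound fed at different doses, so the comparison is of the diets and not of equal amounts. Of the 9 annexins, limma called 0, 0 had an unadjusted p under 0.05, and 0 had groups that did not overlap. Among all genes, 0.00817% were called, which is 1 gene, 8.90% did not overlap and 639 had an unadjusted p under 0.05. The log2 fold changes of the annexins for CLE against LU lay between -0.18 for Anxa2 and 0.22 for Anxa8. Their 95% confidence intervals reached from -0.58 to 0.70, and only that of Anxa8 went past the fold of 1.5. The intervals were narrower for Anxa7 (-0.17 to 0.19) and Anxa11 (-0.17 to 0.23) than for Anxa1 (-0.56 to 0.30).

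Set against ND, the supplemented groups had 1 annexin called each, Anxa1, which was higher than in ND. In CLE against ND 2.97% of all genes were called, 2.13% as higher, and 24.9% did not overlap. Anxa1 was 1.75-fold the ND mean in CLE (log2 fold change 0.84, SE 0.20, limma adjusted p = 0.035), with every CLE mouse above every ND mouse. This call was made under 14 of 27 alternative settings, with a log2 fold change of 0.60 to 1.38 among them, and leaving out 1 library lost it for ND mouse 2 (0.60, limma adjusted p = 0.0732), ND mouse 3 (0.0653), CLE mouse 4 (0.0695), CLE mouse 11 (0.115), each HFD mouse (0.0513 to 0.055) and LU mouse 2 (0.0517). In LU against ND 6.55% of all genes were called, 5.02% as higher, and 30.3% did not overlap. Anxa1 was 1.93-fold the ND mean in LU (log2 fold change 0.98, SE 0.20, limma adjusted p = 0.00909), a call made under 25 of 27 settings and lost, at 0.43, without the assembled transcripts. The lowest supplemented mouse had 290.7 FPKM of Anxa1 and the highest ND mouse 234.

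The remaining annexins differed from ND by less. The means of Anxa4 were 34.0 ± 3.19 FPKM in ND, 38.4 ± 4.21 in CLE and 42.8 ± 4.54 in LU, with limma adjusted p-values of 0.40 and 0.0839 against ND. Anxa5 was at 309 ± 45.2 in ND, 419 ± 41.7 in CLE and 444 ± 31.5 in LU, and all supplemented mice were above all ND mice. Its log2 fold changes of 0.44 for CLE and 0.53 for LU had limma adjusted p-values of 0.0429 and 0.0106 but were under the fold needed. Anxa6, at 229 ± 38.7 in ND, 295 ± 17.3 in CLE and 305 ± 8.16 in LU, had limma adjusted p-values of 0.0675 and 0.0284, also under the fold. In HFD its mean was 283 ± 12.9, which the supplemented mice overlapped. Without the libraries with the letter R, 3 annexins were called for CLE (Anxa1, Anxa2 and Anxa6) and 4 for LU (these and Anxa5), with ND mouse 2 as the only ND library. In these fits 1.59% of all genes were called for CLE and 5.47% for LU. Anxa5 was also called for LU without ND mouse 4, at a log2 fold change of 0.65.

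Within most groups 1 mouse was the highest for most annexins. CLE mouse 11 had the highest level of its group for 8 of the 9 annexins and the lowest for Anxa3, and LU mouse 8 did the same in its group. Their macrophage marker sums, 995 and 1148 FPKM, were also the highest of their groups. ND mouse 2 was the lowest for 6 annexins and ND mouse 4 the highest for 7. In HFD mouse 12 was the lowest for 5 and mouse 15 for 4, while the highest were divided among mouse 15 with 4, mouse 18 with 3 and mouse 12 with 2. Across the 12 libraries, the Pearson's r of Anxa1 on the log2 scale was 0.94 with Anxa5, 0.90 with Anxa2 and 0.89 with Anxa4, but -0.24 with Anxa3. Anxa3 had its strongest negative r, -0.77, with Anxa8. These are descriptions over 12 libraries that share the 4 diets, given without a test.

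For each annexin, the 3 other genes with the highest Pearson's r over the 12 libraries are given as a description. Anxa1 was most like Ostf1 (r = 0.987), a gene listed under a date that maps to Sept9 (0.987) and calm2 (0.986), which encodes calmodulin. Anxa4 was most like Slfn10-ps (0.993), Atp6v1a (0.992), a subunit of the proton pump of lysosomes, and Siglec1 (0.992), a sialic acid receptor of macrophages. Both of these annexins and their nearest genes had their highest mean in HFD and their lowest in ND, as for Siglec1 with means of 6.66 FPKM in ND, 26.5 in HFD, 8.89 in CLE and 9.99 in LU. Anxa2 was most like Fabp5 (0.977), a fatty acid binding protein, and Col6a2 (0.969), a chain of collagen VI. The third gene was listed under a date that joins Marc1 and March1. Anxa5 was most like Plod1 (0.986), which modifies collagen lysines, Sparc (0.985), a matrix protein, and Nek6 (0.982). Sparc had means of 1784 FPKM in ND, 3857 in HFD, 2834 in CLE and 3300.0 in LU, and both supplemented groups lay between ND and HFD, as they did for Anxa5.

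The annexins with smaller changes had other neighbours. Anxa3 was most like Osbpl6 (0.921), Fbln5 (0.900), an elastic fibre protein, and Usp43 (0.896), whose highest means were in CLE. Anxa6 was most like Prr32 (0.962), Srpx2 (0.957) and Casp12 (0.950), and Anxa7 like Fgf13 (0.956), Rab27b (0.949), a GTPase of secretory vesicles, and Tcf19 (0.944). Anxa8 was most like Fdft1 (0.905), which makes squalene for cholesterol synthesis, Rmi1 (0.902) and Dot1l (0.870). Anxa11 was most like Plk2 (0.977), Arhgap17 (0.976) and Dgkz (0.966).

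The calcium-binding S100 proteins, which bind annexin tails, did not move as a group. Of 15 in the list, 11 were tested, and with the HFD 4 rose (S100a4, S100a6, S100a8 and S100g) and 4 fell (S100a1, S100a9, S100a13 and S100a16), against 15.1% and 10.6% of all genes. The median log2 fold change of the list was 0.01, and -0.02 over all genes. S100a10, the partner of annexin A2, was at 166 to 301 FPKM in ND and 215 to 267 in HFD, with a log2 fold change of 0.03 (SE 0.18). S100a11, the partner of annexin A1, was at 805 to 1271 FPKM in ND and 1018 to 1231 in HFD, with a log2 fold change of 0.01 (SE 0.16). Neither partner was thus called while Anxa1 and Anxa2 rose.

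S100a6, which binds annexin A11, was at 131, 194 and 229 FPKM in ND and at 329.8, 340.0 and 349 in HFD, a log2 fold change of 0.91 (SE 0.18, limma adjusted p = 0.00126). S100a4, found in fibroblasts and macrophages, was at 45.8 to 62.4 FPKM in ND and 311 to 355 in HFD, which is 2.58 on the log2 scale (SE 0.16, limma adjusted p = 6.66e-07). S100a4 fell with CLE, to 76.8 to 112 FPKM, and with LU, to 108 to 149 FPKM. S100a8, a part of calprotectin, a protein of neutrophils and macrophages, was at 4.84 to 14.1 FPKM in ND and 69.7 to 118 in HFD, and it fell with CLE (12.7 to 26.0) and LU (20.2 to 53.0). S100a9, the other part of calprotectin, stayed at 2.31 FPKM or less in every library and did not follow S100a8. With CLE 3 members of the list fell and S100a1 rose, where 16.6% of all genes were called in either direction. With LU 2 fell and 2 rose (S100a1 and S100a16), where 12.4% were called. S100a1, S100a13, S100a16 and S100g are named because they were called.

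Of the cell surface plasminogen system, which annexin A2 serves, 5 of 8 genes were tested. With the HFD 2 were called, where 25.7% of all genes were, and Plat, Plgrkt and Serpine2 were not called. Plau, the urokinase that activates plasminogen, was at 47.7, 38.5 and 31.3 FPKM in ND and at 96.4, 83.5 and 107 in HFD, a log2 fold change of 1.28 (SE 0.15, limma adjusted p = 4.37e-05). Plaur, its receptor, was at 4.29 to 8.25 FPKM in ND and 15.4 to 17.4 in HFD, a log2 fold change of 1.30 (SE 0.26, limma adjusted p = 0.00143). Both fell with CLE and with LU, Plau to 37.8 to 50.2 FPKM and 41.0 to 47.1 FPKM.

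Among the genes of membrane repair, 11 of 14 were tested. With the HFD 2 rose and 1 fell, where 25.7% of all genes were called in either direction. With CLE 1 rose and 1 fell, where 16.6% of all genes were called. With LU 1 rose and 1 fell, where 12.4% were called. Myof and Dysf are related ferlins that work with annexins at torn membranes, and they moved in opposite directions. Myof was at 5.87, 6.02 and 6.67 FPKM in ND and at 52.3, 42.1 and 46.2 in HFD, a log2 fold change of 2.73 (SE 0.21, limma adjusted p = 1.51e-06). It fell with CLE, to 8.02 to 15.2 FPKM, and with LU, to 10.4 to 17.2 FPKM. Dysf was at 27.1, 17.0 and 31.2 FPKM in ND and at 11.7, 13.3 and 16.1 in HFD, a log2 fold change of -0.80 (SE 0.24, limma adjusted p = 0.0152), and it rose with CLE (22.1 to 40.8 FPKM) and LU (25.9 to 33.0 FPKM). Capn1, a calpain named because it was called, rose with the HFD by 0.65 on the log2 scale, whereas Capn2 (log2 fold change -0.19) and Ahnak (0.10) were not called.

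**Figure D4:**
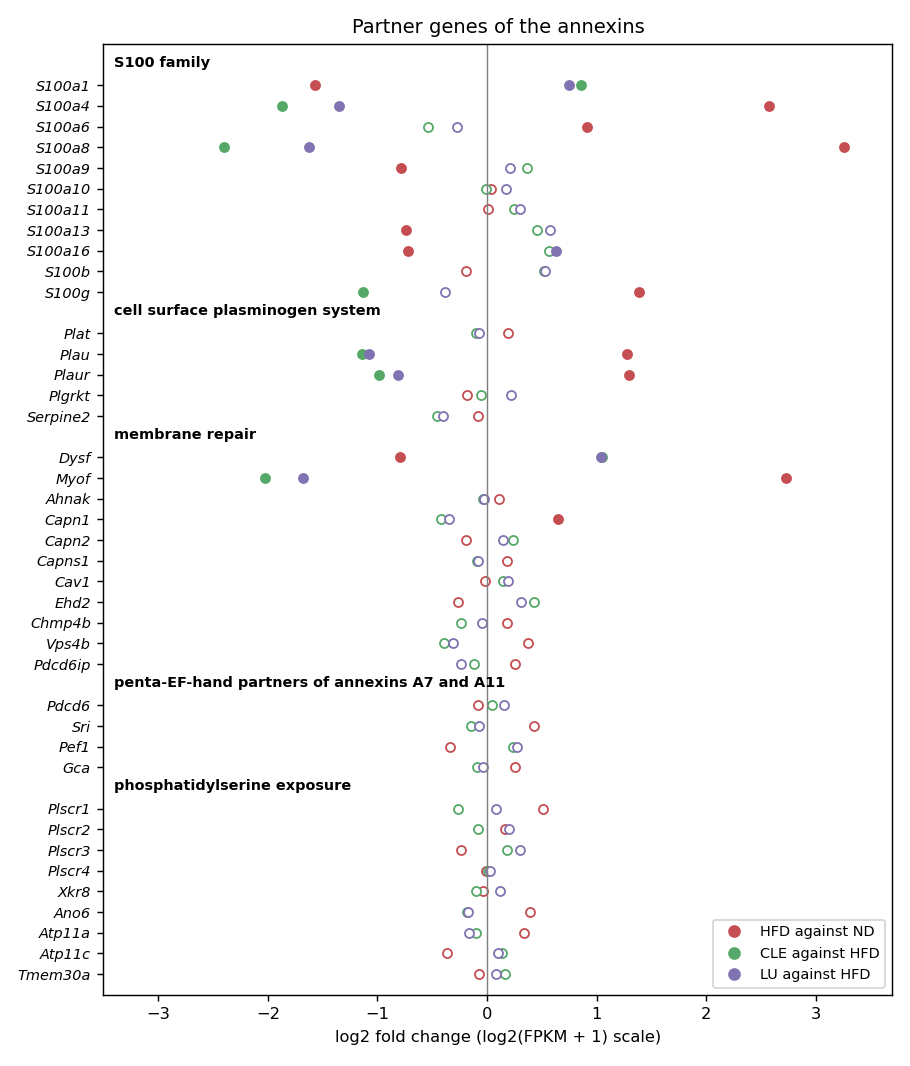
Log2 fold change on the log2(FPKM + 1) scale of the tested genes of 5 lists of annexin partners, for HFD against ND (red), CLE against HFD (green) and LU against HFD (purple); filled points were called. Filled red points lie on both sides of 0 in the S100 family, while the penta-EF-hand and phosphatidylserine lists have 0 filled points.

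Few of the other partners were called. Of the penta-EF-hand proteins that bind annexins A7 and A11, 4 were tested and 0 were called in any comparison. Pdcd6, the partner of annexin A11, was at 29.6 to 36.4 FPKM over all libraries. Sri, the partner of annexin A7, had a log2 fold change of 0.43 with the HFD (limma adjusted p = 0.00219), under the fold needed. Pef1 was lower, by -0.34 (limma adjusted p = 0.0223), also under the fold. Of the genes that expose phosphatidylserine, to which Anxa5 binds, 9 were tested and 0 were called against HFD or with the HFD. Plscr1 was the only one called elsewhere, as higher in LU than in ND. Of the 7 formyl peptide receptor genes listed, the 5 in the table were too low to be tested, and Fpr1 reached 0.106 FPKM at most. Fpr2 and Fpr3 were not matched by symbol and are not analysed here, so receptors of annexin A1 were covered only in part. Anxa9 was at 2.04 to 3.79 FPKM and not called, Anxa10 was listed at 0 in all libraries, and Anxa13 reached 0.0604 FPKM at most.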

How the data were processed

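eWAT mRNA of 12 mice was sequenced by the authors as paired-end libraries. The submitters' processing notes name CASAVA 1.8.2, Bowtie2 2.2.3, TopHat2 2.0.12 and Cufflinks 2.2.1. The authors deposited FPKM per transcript (152210 rows), with known and assembled transcripts. Of 15 FPKM columns, 12 were used and 3 match no sample. The table also marks transcripts called by the authors, which were not used. No genome build for the alignment is given in the sources used here. Of 78786 known rows, 76916 were found in GENCODE M21 and 87.6% of these had its positions.

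The 142884 rows with a plain Ensembl transcript, or one with class code = or j, were summed to 22016 genes by symbol. Of the transcript values above 0, 33.2% were under 1e-06, so whole reads could not be recovered, and depth and counting error are unknown. Gene totals were 438191 to 458413 FPKM. The 12238 genes that reached an FPKM of 1 in 3 or more libraries were fitted with limma 3.58.1 (R 4.3.3) on log2(FPKM + 1), with 12 libraries, 1 coefficient per group and no covariate. Contrasts share mice. Confidence intervals cover 95%. The thresholds, adjusted p under 0.05 and fold over 1.5, are those the study states. Its count test was not repeated, since no counts were used here. The method was tested on simulated data. Python 3.11.15, pandas 2.3.3, numpy 2.4.6 and matplotlib 3.10.9 were used otherwise. CLE columns carry another abbreviation and were mapped by the diet in the labels.

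All 9 annexins, their fixed partner genes and the 3 genes most like each annexin in Pearson's r are named. Members, gene lists and alternatives were chosen with earlier results of these data known. The lists of partner genes and cell markers are given by counts. Of the partner genes, 1 was left out of its list and is not reported. The alternatives were another pseudocount, other filters and scalings, fits of just the groups compared, with a trend or with array weights, the letter R, the adjusted p alone, other transcript sums, a replicate block, and leaving out each library.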

Additional observations from a re-analysis of the deposited data

How the results depend on the processing

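The number of annexins called was within 1.5 times that reported under every alternative run for HFD against ND, LU against HFD and CLE against LU. Leaving out each library in turn gave 3 to 4, 3 to 3 and 0 to 0 calls there, 2 to 4 for CLE against HFD, 0 to 1 for CLE against ND and 1 to 2 for LU against ND. By the adjusted p alone, 5 annexins passed in CLE against HFD, where 34.7% of all genes did. In CLE against ND 2 passed, and of the 12238 genes tested 424 passed as higher and 246 as lower. In LU against ND 3 passed, and over all genes 1089 passed as higher and 506 as lower. The single call of CLE against ND became 0 with no filter, with only the groups compared and with array weights. It also became 0 with the highest transcript in place of the sum and with the replicate block. LU against ND had 0 calls without class code j and 0 with the replicate block. Without the libraries with the letter R, ND mouse 2 was the only ND library, so that fit lends no weight to calls against ND. The totals over alternatives given for comparisons with ND still include it. Mouse numbers shared by groups belong to different mice on different diets. Their deviations from the group means had r of -0.11 for ND and CLE mouse 2 and -0.00027 for ND and CLE mouse 4. The r was 0.097 for ND and LU mouse 2, 0.19 for ND and LU mouse 3 and 0.11 for CLE and LU mouse 2. The replicate block kept only mice whose numbers both groups share, 2 and 4 for CLE against ND, 2 and 3 for LU against ND. Over all genes it left 4 called in CLE against ND and 137 in LU against ND. The 364 and 802 of the main fit came from all 12 libraries, so blocking and the smaller set of mice cannot be told apart here.

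Anxa1 and Anxa4 were called under all 26 alternatives in HFD against ND, CLE against HFD and LU against HFD, and Anxa8 was in LU against HFD. Anxa8 in CLE against HFD was called under 17 of 26, with limma adjusted p-values of 0.00135 to 0.176. Signs turned in values that were never called. For CLE against LU these were Anxa1 at 0.35 without class code j, Anxa3 at -0.033 with the highest transcript and -0.033 without class code j, Anxa6 at 0.0018 with quantile normalization, Anxa7 at -0.0074 with array weights and -0.0063 with the highest transcript, and, leaving out 1 library, Anxa7 at -0.026 to 0.043, Anxa8 at -0.063 to 0.48 and Anxa11 at -0.025 to 0.092. For CLE against ND they were Anxa8 at 0.16 without the libraries with the letter R and Anxa11 at -0.0053 with the replicate block. Of the single log2 fold changes, 1365 kept direction and call, 16 gained and 27 lost a call and 14 turned sign; the cause was not tested. Quantile normalization split the genes called for HFD against ND into 1614 higher and 1628 lower, against 1844 and 1302, with a median of all genes of -0.09. With 3 mice per group and unknown depth, small differences cannot be resolved.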
